A study of Mus musculus with 4 samples.

Results

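Alveolar type 2 (AT2) cells of 12-month-old mice were compared between a library made at day 30 after bleomycin and a library made from PBS-treated mice at day 0. Cells were taken if they had at least 500 genes, at most 20% of their counts from mitochondrial genes and at least 5% of their counts from Sftpc, which encodes surfactant protein C. This gave 2570 cells of 2807 barcodes in the PBS library and 2450 of 3006 in the bleomycin library, 5020 of the 10911 barcodes in the series. Of 27998 genes in the files, the 4701 at 20 CPM (a gene's counts summed over these cells, scaled to a total of 1000000 in each library) or more in either library were described. A gene under 20 CPM with PBS could enter only by being higher with bleomycin, and the reverse also held. This bears on the counts of higher and lower genes below.

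Both groups were Sftpc-creER;Rosa26-mTmG mice. In them tamoxifen turns on a membrane GFP in cells that use the Sftpc promoter and in their descendants. Tamoxifen was given to all mice, and 14 days later 1 dose of bleomycin (0.8 U/kg) or PBS was delivered into the trachea. GFP-positive cells without CD45, found on leukocytes, or CD31, found on endothelium, were sorted from 3 pooled mice per library and sequenced with the 10x Genomics 3' chemistry, and the same pair of libraries was made from 3-month-old mice. The label follows descendants whatever they become, while the Sftpc limit keeps only those that still carry Sftpc RNA at that level. PBS mice were labelled day 0 and bleomycin mice day 30, so treatment and days elapsed cannot be told apart. Each group was 1 library, so no difference has a replicate check, no test was made, and the 95% intervals in brackets cover counting error only.

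AT2 cells line the alveoli as cuboidal cells. They make, store and secrete surfactant, the lipid and protein film that keeps alveoli open, and they renew themselves and the thin AT1 cells that carry gas exchange. They also take part in innate defence, and in mice they carry MHC class II at rest. Bleomycin breaks DNA and injures the alveolar epithelium, after which AT2 cells divide and some pass through a keratin-rich transitional state.

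The bleomycin library was the deeper one: the selected cells held 13289829 counts with PBS and 31849343 with bleomycin, with medians of 5137.5 and 12520 counts per cell, so that 1 count was worth 0.0752 and 0.0314 CPM. Sftpc made up a median of 15.1% and 16.3% of a cell's counts, and 13 AT2 markers including Sftpc summed to 246947 and 266804 CPM. Just under the limit, at 4 to 5%, lay 20 PBS and 26 bleomycin cells, and just over it, at 5 to 6%, 32 and 39 cells. The other AT2 markers held 4.79% and 3.98% of counts in the cells just under and 6.77% and 4.83% just over, against 9.54% and 11.004% over all selected cells. The 2 libraries shared 14 barcodes among selected cells.

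Markers of leukocytes and mesenchymal cells were at low levels and higher with bleomycin. In PBS and bleomycin cells, macrophage markers summed to 26.0 and 134 CPM (Marco and Adgre1 at 0 with PBS), neutrophil markers to 16.3 and 112 CPM, T or NK cell markers to 9.78 and 56.9 CPM, B or plasma cell markers to 27.3 and 146 CPM and mesenchymal markers to 3.91 and 26.6 CPM (Pdgfra, Col1a2, Tcf21 and Lum at 0 with PBS). The 7 ciliated cell markers summed to 237 and 115 CPM, with Tppp3, Dynlrb2 and Sec14l3 lower and the defining factor Foxj1 at 0.828 and 1.79 CPM. Club cell markers summed to 7276 and 5409 CPM, nearly all of it Scgb1a1 (7176 and 5183 CPM), while Scgb3a1 (6.77 and 24.6 CPM), Scgb3a2 (15.5 and 36.8 CPM) and Cyp2f2 were higher. Cells with Sftpc under 5% and at least 5 counts of 6 leukocyte genes, called immune cells below, numbered 38 in the PBS library and 295 in the bleomycin library. Their level is given beside genes that leukocytes also make, and the part of their RNA in those results was not tested.

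Bleomycin cells had 325 of the 4701 genes (6.91%) at 2-fold or more above PBS cells, and 186 (3.96%) at 2-fold or more below. At 1.5-fold, the limit used for gene lists, 868 (18.5%) were higher and 497 (10.6%) lower, and the median log2 ratio of all 4701 genes was 0.10. Scaling by the median of gene ratios in place of total counts moved the 2-fold split from 325 against 186 to 261 against 237. At least 4-fold, 85 genes were higher and 36 lower, and at least 8-fold 35 and 8. Of the genes described below, Isg15 lies on chromosome 4, 156199424 to 156200818, Ifi27l2a on chromosome 12, 103442167 to 103443680, H2-Eb1 on chromosome 17, 34305867 to 34316674, Lcn2 on chromosome 2, 32384633 to 32388252, Bex2 on chromosome X, 136066564 to 136068236, Lpl on chromosome 8, 68880491 to 68907448 and Cbr2 on chromosome 11, 120729489 to 120732114 (gene bounds of GENCODE M21, GRCm38). Of the 325 higher genes 209 lay outside the gene lists used below, as did 145 of the 186 lower ones. The share of all 4701 genes outside the lists was not counted. The plot of levels in both libraries shows Spp1, Iigp1 and Meg3 farthest above the line of equality among its labelled genes, and Bex2 and Lpl farthest below it.

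**Figure D1:**
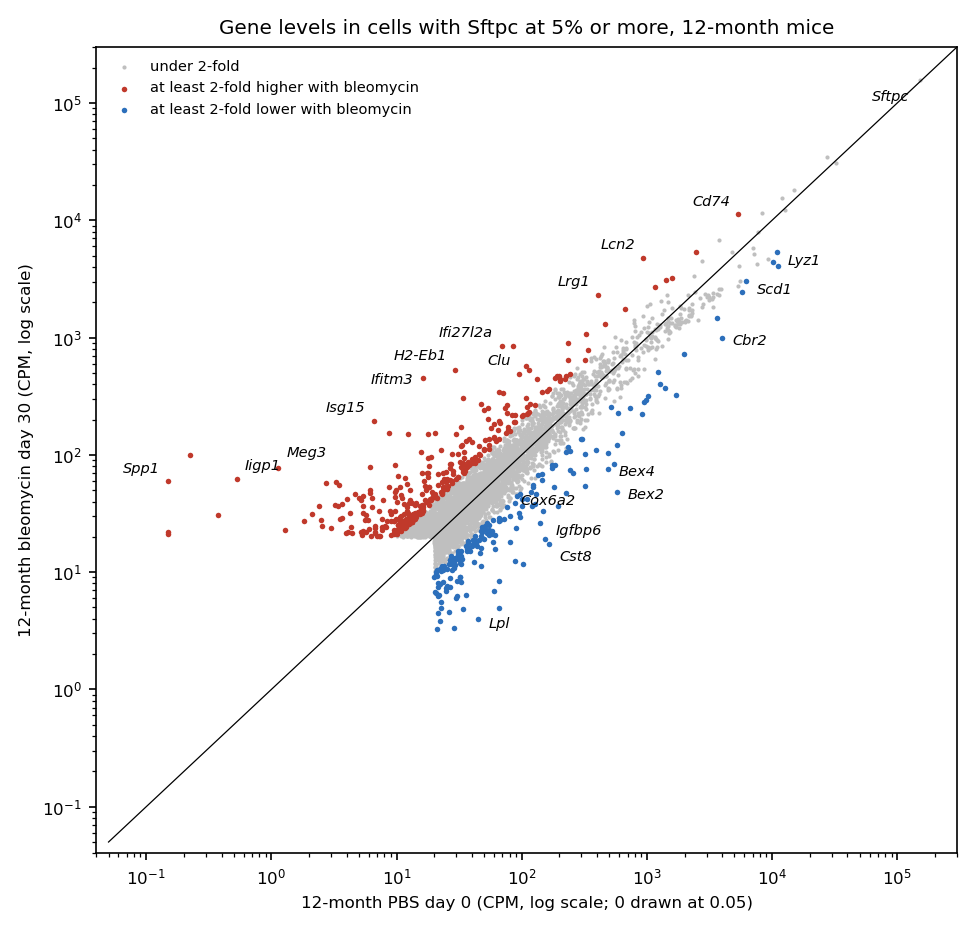
Level of each of the 4701 genes in CPM in the PBS library (x axis) and the bleomycin library (y axis), both on log scales; each point is 1 gene summed over the selected cells of 1 library, and the line marks equal levels. The 325 red genes were at least 2-fold higher with bleomycin and the 186 blue genes at least 2-fold lower.

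Interferon-stimulated genes made the highest list of more than 4 genes. Interferons bind surface receptors whose kinases activate STAT factors and IRF9, and these switch on antiviral effectors through a short repeated GAAA element in promoters. Of 37 listed genes, 23 reached 20 CPM, and all 23 of these were at least 1.5-fold higher with bleomycin and none lower. Members under 20 CPM with PBS, Isg15, Ifitm3, Irf7, Oasl2 and Rtp4 among them, could pass the minimum only as higher genes. The median log2 ratio of the 23 was 2.97, against 0.10 for all genes. Their levels summed over the whole list were 1758 and 5648 CPM in PBS and bleomycin cells, and 1269 and 1971 CPM in the 3-month pair.

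Isg15, Bst2 and Oas1a are shown with 250 bases of RefSeq sequence upstream of the start site, because their promoters hold the interferon element and their levels stood far apart. Capitals mark matches to a motif made of a pair of GAAA with 2 bases of any kind between (or TTTC likewise on the other strand, overlapping matches joined), each sequence is written 5′ to 3′ on the gene's strand, and coordinates are on GRCm38.p6. The region upstream of Isg15 is chr4:156200819-156201068 (minus strand), that of Bst2 chr8:71537473-71537722 (minus strand) and that of Oas1a chr5:120907526-120907775 (minus strand).
Isg15: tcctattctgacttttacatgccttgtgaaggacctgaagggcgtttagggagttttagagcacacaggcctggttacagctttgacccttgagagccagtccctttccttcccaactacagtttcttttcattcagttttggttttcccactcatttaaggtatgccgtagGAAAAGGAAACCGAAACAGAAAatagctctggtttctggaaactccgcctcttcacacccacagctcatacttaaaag
Bst2: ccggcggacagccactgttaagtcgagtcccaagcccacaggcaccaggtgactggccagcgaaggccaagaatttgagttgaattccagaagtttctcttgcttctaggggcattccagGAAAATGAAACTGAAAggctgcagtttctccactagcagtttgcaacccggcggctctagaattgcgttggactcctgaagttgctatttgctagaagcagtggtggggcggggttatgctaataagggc
Oas1a: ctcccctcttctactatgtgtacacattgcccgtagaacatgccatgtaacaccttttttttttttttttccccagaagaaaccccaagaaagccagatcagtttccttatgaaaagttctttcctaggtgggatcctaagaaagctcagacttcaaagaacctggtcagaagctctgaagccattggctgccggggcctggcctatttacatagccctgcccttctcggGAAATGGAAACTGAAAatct
The most distal match began 78 bases before the start of Isg15, 130 before Bst2 and 20 before Oas1a. Within 250 bases before to 50 after a start, the element was found in 3.44% of 32851 RefSeq promoters and in 3.67% of the 3655 matched genes at 20 CPM. Among the interferon-stimulated genes 27 of 37 had a promoter in that table and 14 of these held it, and of the 16 matched members at 20 CPM it was in 5 (Ifitm3, Ifitm2, Isg15, Bst2 and Oas1a). A match is a run of letters and does not show that a factor was bound.

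Isg15, a ubiquitin-like protein joined to other proteins in antiviral defence, was at 6.55 CPM (5.24 to 8.07) in the PBS library and 196 CPM (191 to 201) in the bleomycin library, 29.96-fold (24.2 to 37.5) higher. In cells thinned to 3000 counts it was found in 1.55% and 28.5% of cells (2.76% and 55.0% unthinned). Bst2, which tethers budding virus to the cell surface, went from 47.6 to 273 CPM, 5.72-fold (5.28 to 6.21) higher, and Oas1a, which makes the second messenger for RNase L, from 4.67 to 46.7 CPM, 10.0-fold (7.76 to 13.1) higher. These 3 were chosen for both the element and their ratios, and Irf7 and Oasl2, described next, had no match in their promoters.

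Ifitm3, a membrane protein that blocks virus fusion, stood at 16.3 CPM with PBS and 455 CPM with bleomycin, 27.9-fold (24.4 to 32.0) higher, and at 871 and 788 CPM in immune cells of the same libraries. Irf7, the transcription factor that amplifies interferon production, was 17.8-fold (13.2 to 24.6) higher, at 3.31 and 58.9 CPM. Oasl2 (2.41 and 36.8 CPM) and Rtp4 (6.17 and 79.3 CPM) were 15.3-fold and 12.9-fold higher. Ifi27l2a, an interferon-induced membrane protein, was at 68.9 CPM with PBS and 853 CPM with bleomycin, 12.4-fold (11.6 to 13.2) higher. In immune cells Ifi27l2a stood at 916 and 1462 CPM, and in the 3-month pair it was level, at 23.7 and 23.1 CPM.

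The interferon-inducible GTPases, which attack the vacuoles of intracellular parasites and bacteria, were higher in all 4 members at 20 CPM of 15 listed. All 4 were under 20 CPM with PBS, so they could pass the minimum only as higher genes. Iigp1 had 0.527 CPM in PBS cells and 62.8 CPM in bleomycin cells, 119-fold (57.8 to 297) higher, and stood at 0 and 23.6 CPM in immune cells. Igtp was at 3.46 and 55.8 CPM (16.1-fold higher), Ifi47 at 3.39 and 36.6 CPM (10.8-fold) and Irgm1 at 12.5 and 38.7 CPM (3.10-fold). Iigp1 was thus higher in AT2 cells than in the immune cells of the bleomycin library.

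Per cell, the interferon list gave a median of 5 counts of 3000 in PBS cells and 14 in bleomycin cells. At the 10th percentile a cell held 2 and 6 counts, at the 90th 9 and 30, and 72.7% of bleomycin cells lay above the 90th percentile of PBS cells. The cumulative plot by list shows this shift over most of the bleomycin cells. With the 5 PBS and 49 bleomycin cells that held 5 or more leukocyte counts left out, the list's median log2 ratio was 2.95.

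**Figure D2:**
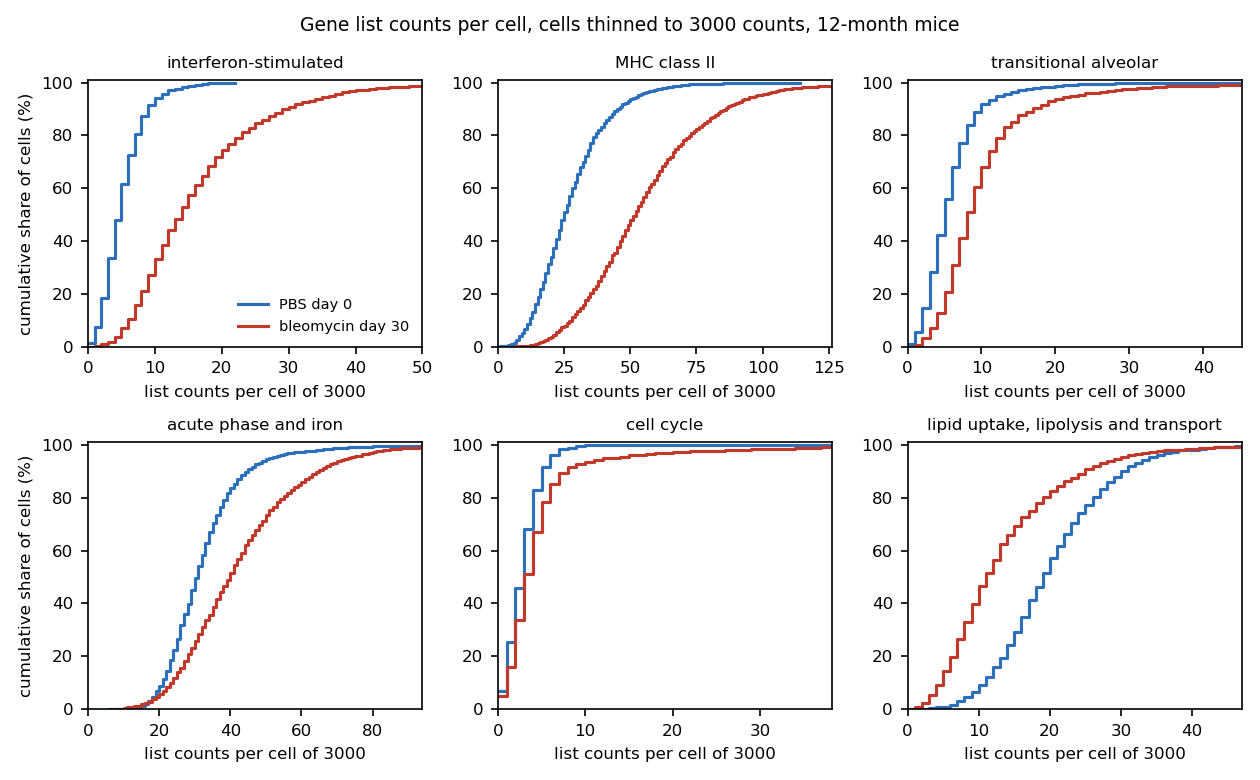
Cumulative share of cells (y axis, %) by the number of counts of a gene list in a cell thinned to 3000 counts (x axis, ending at the 99.5th percentile), for 2328 PBS cells (blue) and 2450 bleomycin cells (red). The interferon, MHC class II, transitional and acute phase curves lie to the right with bleomycin, the cell cycle curve differs mostly in its upper tail, and the lipid transport curve lies to the left.

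Antigen presentation genes were higher as a whole. MHC class I molecules show peptides from inside the cell to CD8 T cells, and class II molecules show taken-up peptides to CD4 T cells. All 16 class I and antigen processing genes at 20 CPM were at least 1.5-fold higher (median log2 ratio 1.08), and of 8 class II genes, 7 were higher and none lower (median 1.06). The summed class II level was 9261 and 18529 CPM, and the summed class I level 7959.9 and 15879 CPM.

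B2m, the light chain of class I molecules, was at 2467 CPM with PBS and 5405 CPM with bleomycin, 2.19-fold (2.17 to 2.22) higher. The class I heavy chains H2-K1 (1574 and 3246 CPM) and H2-D1 (2749.8 and 4510.4 CPM) were 2.06-fold and 1.64-fold higher. Tap1, a subunit of the peptide transporter, was 4.35-fold (3.78 to 5.03) higher, at 16.03 and 69.7 CPM, and Psmb8, an immunoproteasome subunit, 2.41-fold (2.31 to 2.52) higher, at 193 and 466 CPM. The non-classical H2-Q7 was at 65.4 and 342 CPM and H2-Q6 at 37.8 and 135 CPM; these are near-identical copies whose reads the authors' counting could split, so their separate values are uncertain.

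Cd74, the class II invariant chain and among the most abundant messages of these cells, was at 5362 CPM with PBS and 11286 CPM with bleomycin, 2.10-fold (2.09 to 2.12) higher. H2-Ab1 (1151 and 2692 CPM) was 2.34-fold higher and H2-Aa (2377 and 3339 CPM) 1.40-fold, and H2-DMa, which loads peptide, 2.06-fold (128 and 264 CPM). H2-Eb1, a class II beta chain, stood apart from these, with 29.4 CPM in PBS cells and 524 CPM in bleomycin cells, 17.8-fold (16.1 to 19.7) higher. It was found in 8.81% and 74.6% of thinned cells, so the difference was spread over most cells, and in 10.5% and 74.6% of immune cells, at 58.5 and 1455 CPM and median depths of 2459 and 6300 counts. In the 3-month pair H2-Eb1 was at 23.3 and 36.8 CPM.

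Ctss, the protease that cuts the invariant chain, was low in the selected cells, 2.11 and 31.6 CPM (14.98-fold higher, 10.3 to 22.7), and abundant in immune cells, 988 and 2754 CPM. The Ly6 genes, surface proteins of which several respond to interferon, were all higher: 7 of 7 at 20 CPM, with a median log2 ratio of 1.91. Ly6a was at 33.6 and 305 CPM, 9.07-fold (8.25 to 10.00) higher, Ly6i at 70.2 and 338 CPM, 4.81-fold (4.50 to 5.15) higher, and Ly6c1 at 108 and 576 CPM, 5.35-fold (5.07 to 5.65) higher. Ly6c1 and Ly6c2 (54.1 and 204 CPM) are close copies and their split is uncertain. A thinned cell held a median of 4 counts of the Ly6 list with PBS and 9 with bleomycin.

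Secreted acute phase and defence proteins went in both directions. Acute phase proteins are made on IL-6 and IL-1 signals, largely by liver, and some by airway and alveolar epithelium. Among 8 acute phase and iron genes at 20 CPM, 3 passed 1.5-fold upward and 2 downward, and the median was -0.37 on the log2 scale. The median was 0.55 when scaled without the 20 most abundant genes and 1.41 at a minimum of 5 CPM. In both of these settings further members passed the minimum. Summed over the list the level was 10776 and 14295 CPM, the higher value being with bleomycin. Lcn2, which withholds iron from bacteria by binding their siderophores, was at 934 CPM with PBS and 4806 CPM with bleomycin, 5.14-fold (5.05 to 5.24) higher. It was found in 73.7% and 99.1% of thinned cells, against 23.7% and 89.5% of immune cells at the median depths above. Lrg1, a leucine-rich secreted glycoprotein, was at 407 and 2322 CPM, 5.70-fold (5.55 to 5.86) higher, and Saa3, a serum amyloid, at 3.24 and 37.6 CPM, 11.6-fold (8.56 to 16.1) higher. The 2 lower members were the haemoglobin scavenger Hp (758 and 449 CPM, 1.69-fold lower) and the transferrin receptor Tfrc (111 and 70.1 CPM, 1.58-fold lower), and ferritin heavy chain Fth1 stood at 5437 and 4086 CPM.

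Lysozyme, which cuts bacterial walls, has 2 mouse genes that stood on opposite sides. Lyz2 was at 27479 CPM with PBS and 34687 CPM with bleomycin, 1.26-fold (1.26 to 1.27) higher, while Lyz1 was at 10981 and 5312 CPM, 2.07-fold (2.05 to 2.08) lower. The 2 genes are similar in sequence, so their split rests on the authors' counting. Of 12 mucosal defence genes 6 were higher and 1, Lyz1, lower, with Chil1, a chitinase-like protein, at 664 and 1739 CPM (2.62-fold higher) and the protease inhibitor Slpi at 357 and 666 CPM (1.87-fold). Slpi was at 104 and 2435 CPM in immune cells.

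Chemokines, which draw leukocytes, were higher in 6 of 10 members and lower in none (median log2 ratio 0.73). Cxcl2, which draws neutrophils, was at 8.73 CPM with PBS and 152 CPM with bleomycin, 17.4-fold (14.5 to 21.1) higher, and Cxcl1, a close relative, at 32.8 and 173 CPM, 5.29-fold (4.79 to 5.84) higher. Cxcl2 stood at 649.9 and 785 CPM in immune cells, and Cxcl1 at 19.5 and 87.1 CPM. Cxcl15, a chemokine of lung epithelium and an AT2 marker, was at 8259 and 11627 CPM, 1.41-fold (1.40 to 1.42) higher. Cxcl17, a mucosal chemokine, was 1.97-fold higher (58.5 and 116 CPM), and Il33, an alarmin, was level at 235 and 233 CPM.

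Spp1 (osteopontin, a secreted matrix and cytokine protein) had the highest ratio of the named genes, from 2 counts or 0.150 CPM with PBS to 59.6 CPM with bleomycin, 396-fold (109 to 3272) higher. It was found in 0.0430% and 10.0% of thinned cells and stood at 84.5 and 3013 CPM in immune cells, where it was in 13.2% and 53.9% of cells. With cells of 5 or more leukocyte counts left out the ratio was 168. S100a8 (3.69 and 37.7 CPM) and S100a9 (5.72 and 30.5 CPM), abundant calcium-binding proteins of neutrophils, were 10.2-fold and 5.33-fold higher, and at 364 and 884 CPM (S100a8) and 728 and 483 CPM (S100a9) in immune cells. NF-kB feedback genes were higher in 4 of 8 members, with Nfkbia, the inhibitor that NF-kB itself induces, at 107 and 304 CPM (2.83-fold higher, 2.68 to 3.00) and Ier3 at 32.7 and 119 CPM (3.65-fold higher). Of 5 complement genes, 3 were higher (C3, Cr1l and Cd59a, between 1.56-fold and 1.63-fold) and 1 lower, Hc, which encodes C5 and is an AT2 marker, at 608 and 311 CPM (1.96-fold lower, 1.90 to 2.02).

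**Figure D3:**
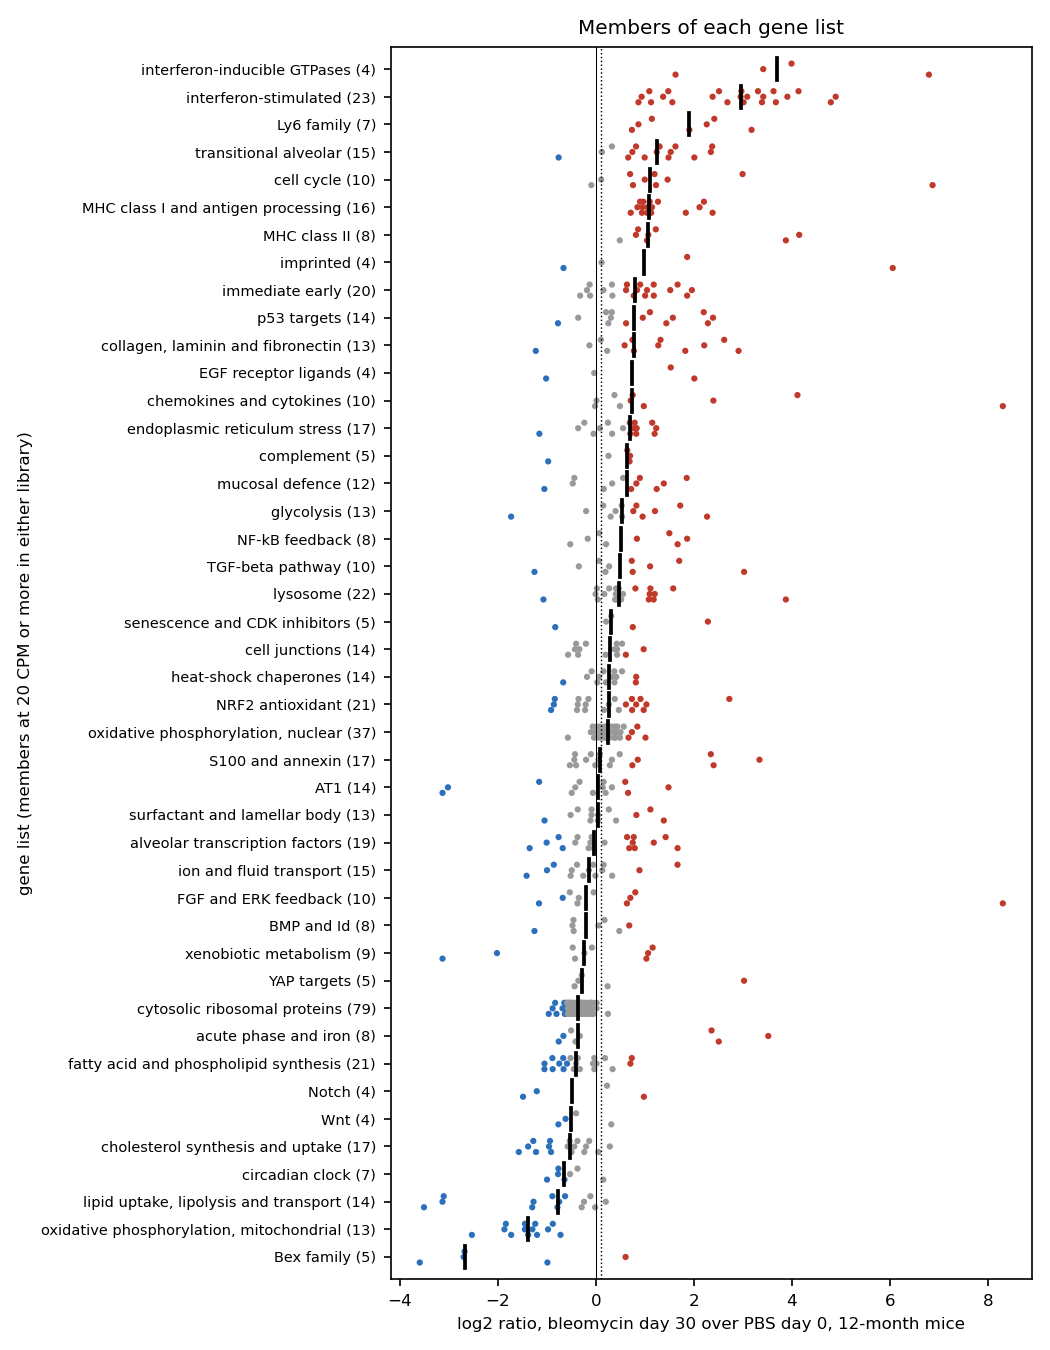
Log2 ratio of bleomycin over PBS (x axis) for the members at 20 CPM or more of each gene list with at least 4 such members (y axis, number of members in brackets); points are genes, red from 1.5-fold higher and blue from 1.5-fold lower, bars are list medians, and the dotted line is the median of all 4701 genes, 0.10. Interferon, Ly6 and transitional alveolar lists stand at the top and the Bex, mitochondrially encoded and lipid transport lists at the bottom.

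Genes of the transitional alveolar state, which regenerating AT2 cells pass through on the way to AT1 cells, were higher in 12 of 15 members and lower in 1, the median being 1.25 on the log2 scale. Clu, a secreted chaperone, was at 94.4 CPM with PBS and 490.5 CPM with bleomycin, 5.19-fold (4.90 to 5.51) higher, and was in 20.9% and 64.2% of thinned cells. Anxa1 (29.6 and 151 CPM), Krt19 (34.5 and 107 CPM) and the EGF receptor ligands Hbegf (17.5 and 70.6 CPM) and Areg (26.9 and 77.9 CPM) were 5.10-fold, 3.09-fold, 4.04-fold and 2.89-fold higher. The lower member was Nupr1, a stress-induced chromatin protein, at 626 and 371 CPM, 1.69-fold (1.64 to 1.74) lower. A thinned cell held a median of 5 counts of the list with PBS and 8 with bleomycin, and the 99th percentiles were 21 and 43.5, so a shift of most cells came with a tail of high ones. With the Sftpc limit raised to 10% the median log2 ratio was 0.98.

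AT1 genes were split: of 14, 3 were higher and 3 lower (median 0.04 on the log2 scale). Ager, the AT1 receptor that AT2 cells also transcribe, was at 1301 and 2056 CPM, 1.58-fold (1.55 to 1.61) higher, and Krt7, a simple-epithelial keratin, at 66.9 and 187 CPM, 2.80-fold (2.61 to 3.01) higher. The lower members were Igfbp6, an insulin-like growth factor binding protein, at 154 and 19.03 CPM (8.09-fold lower, 7.38 to 8.87), the lipid-binding Sec14l3 at 42.0 and 18.9 CPM, and the cytochrome Cyp2b10. Sec14l3 also served as a ciliated cell marker above, and Cyp2b10 is counted again with the xenobiotic genes. In a separate set of 14 AT1 markers, 8 reached 20 CPM, of which 2 were higher and 0 lower. Cldn18, the alveolar claudin, was at 482 and 555 CPM, and cell junction genes as a whole had a median of 0.30, with 2 of 14 higher (Esam and Epcam) and none lower.

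Surfactant genes stood close to equality as a list. Among 13 surfactant and lamellar body genes, 3 passed 1.5-fold upward and 1 downward, and the median of 0.04 (log2) was close to that of all genes. Sftpd, the collectin that binds microbes, was at 3799.9 CPM with PBS and 6753 CPM with bleomycin, 1.78-fold (1.76 to 1.79) higher, and Napsa, the protease that processes surfactant protein B, at 1430.1 and 3099 CPM, 2.17-fold (2.13 to 2.20) higher. Sftpb was at 14984 and 18033 CPM and Sftpa1 at 32653 and 30785 CPM, and Sftpc, which chose the cells, at 151588 and 156761 CPM. Slc34a2, the phosphate carrier of the apical membrane, was 1.43-fold (1.41 to 1.44) lower, at 3388 and 2376 CPM. The lower member was Scd1, and the third higher one Chil1. The plot of the genes with the largest differences in CPM shows these small ratios of very abundant messages beside the larger ones of Lcn2, Lrg1 and Cbr2.

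**Figure D4:**
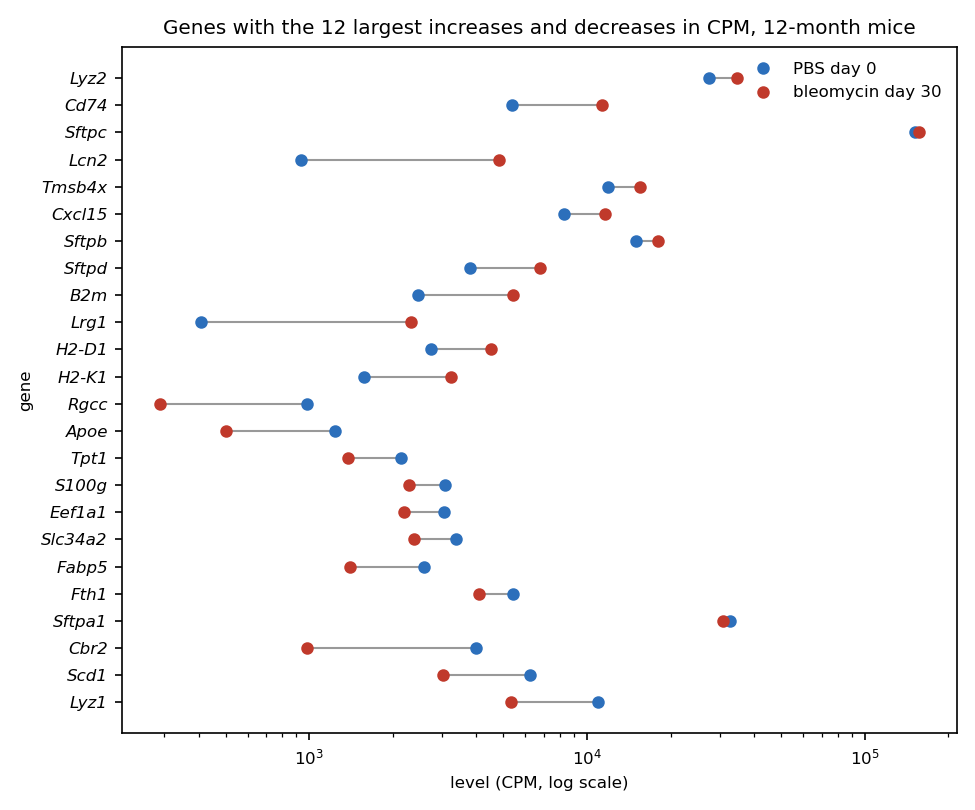
Levels (x axis, CPM, log scale) with PBS (blue) and bleomycin (red) of the 12 genes with the largest increase and the 12 with the largest decrease in CPM (y axis), in 1 library each. Lcn2 stood at 934 and 4806 CPM and Cbr2 at 3976 and 983 CPM, while Sftpc stood at 151588 and 156761 CPM.

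Among 19 alveolar transcription factors 8 were higher and 4 lower. Atf3, a stress-induced repressor, was at 40.2 and 128 CPM, 3.19-fold (2.91 to 3.49) higher, Elf5, an epithelial ETS factor, at 32.1 and 86.2 CPM, 2.69-fold (2.43 to 2.99) higher, and Klf4 at 16.4 and 37.4 CPM, 2.28-fold (1.97 to 2.64) higher. On the lower side were Foxa1, a pioneer factor of lung epithelium, at 56.4 and 22.1 CPM (2.55-fold lower, 2.29 to 2.83), Tfcp2l1 at 48.5 and 24.2 CPM (2.00-fold lower, 1.801 to 2.23) and Etv5, an ETS factor downstream of FGF signalling that maintains AT2 cells, at 362 and 227 CPM (1.60-fold lower, 1.54 to 1.65). Of 10 FGF and ERK feedback genes, 4 were higher (Spp1 among them) and 2 lower, with the feedback inhibitor Spry2 at 123 and 55.2 CPM (2.23-fold lower, 2.08 to 2.39) and the phosphatase Dusp6 at 24.5 and 42.9 CPM (1.75-fold higher). Immediate early genes, which answer within minutes to growth factors and also to tissue dissociation, were higher in 13 of 20 members and lower in none. Fos, a subunit of AP-1, stood at 381 and 683 CPM and Klf2 at 18.0 and 70.2 CPM, while Jund, not among the 13, stood at 1014 and 813 CPM.

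Targets of p53, which DNA breaks activate, were higher in 8 of 14 members and lower in 1 (median 0.79, log2). Phlda3, an inhibitor of AKT, was at 18.0 CPM with PBS and 94.7 CPM with bleomycin, 5.26-fold (4.61 to 6.03) higher, and Cdkn1a, the p21 inhibitor of cyclin-dependent kinases, at 49.6 and 242 CPM, 4.89-fold (4.52 to 5.30) higher. Bax (76.1 and 227 CPM), Ccng1 (34.3 and 93.2 CPM) and Plk2 (7.22 and 33.4 CPM) were 2.98-fold, 2.72-fold and 4.63-fold higher. Gdf15 was level at 18.4 and 21.3 CPM, and the cyclin-dependent kinase inhibitor Cdkn1b was lower, at 26.0 and 14.7 CPM. The lower p53 target was Rrm2b, a ribonucleotide reductase subunit, at 20.4 and 12.0 CPM. A thinned cell held a median of 1 count of the list with PBS and 2 with bleomycin, and 34.3% of bleomycin cells lay above the 90th percentile of PBS cells.

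Cell cycle genes were scarce: 10 of 40 reached 20 CPM, of which 8 were higher and none lower. Ube2c, which feeds the anaphase-promoting complex, was at 0.150 CPM (2 counts) with PBS and 22.04 CPM with bleomycin, 146-fold (40.4 to 1212) higher. Cdc20, an activator of that complex, was at 3.54 and 28.5 CPM, Pttg1 (securin) at 2.56 and 24.9 CPM and the histone gene Hist1h2ap at 0.376 and 30.7 CPM. Ube2c, Cdc20, Pttg1 and Hist1h2ap were all under 20 CPM with PBS, so they could pass the minimum only as higher genes. Ube2c counts were too few for a firm size of the ratio, which was 5.197 on the log2 scale in thinned cells against 6.87 in all, and Cdc20 was 1.92-fold higher in cells with no count of any immune marker, where the bleomycin library kept 160 cells and 9 counts of it. These differences lay in few cells: Ube2c was found in 0.0859% and 1.67% of thinned cells, and the list's median was 3 counts per cell in both libraries while its 99th percentiles were 9 and 37. Stmn1, a microtubule destabiliser, was at 60.2 and 138 CPM, and the G1 cyclin Ccnd1 at 59.9 and 141 CPM, 2.35-fold higher.

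Matrix genes that epithelial cells add to the basement membrane were higher in 9 of 13 members and lower in 1, Col4a4 (28.3 and 12.1 CPM). Sparc, a collagen-binding secreted protein, was at 114 CPM with PBS and 528 CPM with bleomycin, 4.64-fold (4.40 to 4.90) higher, and Timp2, a metalloproteinase inhibitor, at 20.2 and 152 CPM, 7.55-fold (6.68 to 8.57) higher. The collagen VI chains Col6a1 (65.1 and 163 CPM) and Col6a2 (8.65 and 53.5 CPM) and the laminin chain Lamb3 (16.7 and 59.4 CPM) were 2.501-fold, 6.18-fold and 3.56-fold higher. Mesenchymal markers summed to 3.91 and 26.6 CPM, and their part in these values was not tested. Of 10 TGF-beta pathway genes 5 were higher and 1 lower: Cyr61 (6.09 and 49.99 CPM) and Thbs1 (16.8 and 54.8 CPM), which activates latent TGF-beta, were 8.20-fold and 3.26-fold higher, and Bambi, a decoy receptor of the family, was 2.38-fold (2.23 to 2.54) lower, at 145 and 61.1 CPM.

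Few genes of the other signalling lists reached 20 CPM. Of 4 Notch genes, the target Hes1 was higher (99.7 and 197 CPM) and the receptor Notch2 (36.9 and 16.04 CPM) and ligand Jag1 (32.6 and 11.6 CPM) lower. Of 4 Wnt genes, the receptor Fzd5 (21.4 and 14.0 CPM) and the feedback inhibitor Nkd1 (167 and 98.3 CPM) were lower and none higher. Of 5 YAP targets and partners only Cyr61 was at least 1.5-fold higher and none lower, and of 8 BMP and Id genes Id1 was higher (29.6 and 47.7 CPM) and Bambi lower.

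Lipid genes were lower. AT2 cells build surfactant phospholipid from fatty acids that they make themselves under SREBP control or take up from lipoproteins. Of 14 genes of lipid uptake, lipolysis and transport, 9 were at least 1.5-fold lower and none higher (median log2 ratio -0.76), of 17 cholesterol genes 7 were lower and none higher (-0.53), and of 21 fatty acid and phospholipid genes 8 were lower and 2 higher (-0.40). A thinned cell held a median of 19 counts of the uptake list with PBS and 11 with bleomycin.

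Lpl, the lipoprotein lipase that frees fatty acids for uptake, was at 45.1 CPM with PBS and 3.96 CPM with bleomycin, 11.4-fold (9.39 to 13.9) lower. Mgll, which completes the breakdown of triglyceride, was at 28.7 and 3.33 CPM (8.61-fold lower, 6.93 to 10.8) and the lipoprotein esterase Pon1 at 59.9 and 6.84 CPM (8.75-fold lower, 7.52 to 10.2). Immune cells held Lpl at 52.0 and 182 CPM. Apoe, the lipoprotein ligand, was at 1237 and 504 CPM, 2.46-fold (2.40 to 2.51) lower, and stood at 221 and 4838 CPM in immune cells. Fabp5, a fatty acid carrier, was at 2580.4 and 1398 CPM, 1.85-fold (1.82 to 1.87) lower.

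Scd1, which makes monounsaturated fatty acids, was at 6232 CPM with PBS and 3020 CPM with bleomycin, 2.06-fold (2.04 to 2.08) lower. The rate-setting Acaca was at 59.9 and 32.6 CPM, 1.84-fold (1.67 to 2.02) lower, and Thrsp, a lipogenic cofactor, at 31.1 and 15.04 CPM, 2.07-fold (1.81 to 2.36) lower. Of the sterol genes, the regulator Srebf2 (67.2 and 27.8 CPM) and the sterol sensor Insig1 (124 and 53.1 CPM) were 2.42-fold and 2.33-fold lower. The sterol element TCACNCCAC (GTGGNGTGA on the other strand) was in the promoter of 1 of the 16 matched cholesterol genes, Hmgcs1, and in 1.24% of all promoters.

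Of 9 xenobiotic metabolism genes 3 were higher and 2 lower, but the lower ones carried most of the counts, and the list summed to 4947 and 1957 CPM. Cbr2, a lung carbonyl reductase, was at 3976 CPM with PBS and 983 CPM with bleomycin, 4.04-fold (3.99 to 4.10) lower, and Cyp2b10, a cytochrome P450, at 102 and 11.7 CPM, 8.74-fold (7.79 to 9.82) lower. The higher ones were Cyp2f2 (78.3 and 164 CPM), Gsta4 (114 and 233 CPM) and Ephx1 (18.6 and 41.6 CPM). Of 21 antioxidant genes, 8 were higher and 3 lower, with the metallothionein Mt2 at 15.8 and 105 CPM (6.63-fold higher, 5.77 to 7.66) and catalase, Cat, at 543 and 289 CPM (1.88-fold lower, 1.82 to 1.94).

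Genes of oxidative phosphorylation differed by the genome that encodes them. All 13 genes encoded by mitochondrial DNA were at least 1.5-fold lower, with a median log2 ratio of -1.38 and a sum of 52539 and 23635 CPM, and the median cell had 5.08% of its counts from mitochondrial genes with PBS and 2.19% with bleomycin, a share that the cell filter capped at 20%. Of 37 nuclear genes for the same complexes 4 were higher and none lower (median 0.24), where 18.5% of all genes were higher and 10.6% lower. The highest ratio among the 37 was that of Atp5b, at 319.6 and 646 CPM. Cox6a2, the muscle and heart form of a cytochrome oxidase subunit and not in that list, was at 323 and 53.9 CPM, 5.995-fold (5.67 to 6.34) lower. Glycolysis genes were higher in 6 of 13 and lower in 1, with Gapdh at 324 CPM with PBS and 1072 CPM with bleomycin (3.30-fold higher, 3.201 to 3.41), Ldha at 341 and 789 CPM (2.31-fold higher) and hexokinase Hk2 at 120.2 and 36.3 CPM (3.31-fold lower, 3.07 to 3.57).

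Secretory and lysosomal genes were higher in part. Of 17 endoplasmic reticulum stress genes 9 were higher and 1 lower, with the chaperone Calr at 198 and 467 CPM (2.35-fold higher), Hspa5 at 207 and 368 CPM (1.77-fold) and Herpud1, a factor of protein disposal, at 303 and 137 CPM (2.22-fold lower, 2.12 to 2.32). Of 22 lysosome genes 8 were higher, among them the cathepsins Ctsd (109.9 and 253 CPM) and Ctsb (202 and 439 CPM), and 1 lower, the cholesterol exporter Npc1 (97.1 and 46.3 CPM). Immune cells held Ctsd at 351 and 2307 CPM and Ctsb at 533 and 1899 CPM. Cytosolic ribosomal protein genes were lower in 11 of 79 members and higher in none (median -0.36), and a thinned cell held a median of 452 of their counts with PBS and 323 with bleomycin.

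Members of the Bex family were among the lowest ratios. They encode small X-linked adaptor proteins best known from neurons. Bex2 was at 576 CPM (563 to 589) with PBS and 47.8 CPM (45.4 to 50.2) with bleomycin, 12.1-fold (11.4 to 12.7) lower, and was found in 58.6% and 7.59% of thinned cells. Bex4 was at 487 and 75.3 CPM, 6.47-fold (6.18 to 6.79) lower, and Bex1 at 21.1 and 3.30 CPM, 6.41-fold (5.11 to 8.10) lower. Of 5 members at 20 CPM, 4 were lower and 1 higher, Ngfrap1, at 256 and 391 CPM. Cst8, a cystatin-like protease inhibitor, was at 164 and 17.4 CPM, 9.42-fold (8.58 to 10.4) lower, and Prmt8, an arginine methyltransferase, at 65.2 and 8.48 CPM, 7.70-fold (6.71 to 8.85) lower. Tex11 (26.1 and 4.62 CPM), Ppp1r1b (33.9 and 4.80 CPM), Tmod1 (29.8 and 5.997 CPM) and Vpreb3 (30.5 and 6.22 CPM) completed the lowest 15 ratios under the naming rule. Rgcc, a cell cycle regulator, was at 986 and 291 CPM, 3.38-fold (3.29 to 3.48) lower. Outside the lists, the highest 15 included Kng2, a kininogen (2.71 and 57.0 CPM, 21.1-fold higher, 15.2 to 30.2), and Gif, gastric intrinsic factor (1.81 and 27.1 CPM, 14.99-fold higher, 10.0 to 23.5). The imprinted noncoding RNA Meg3 was at 1.13 and 77.8 CPM, 69.0-fold (41.7 to 123) higher, in 0.258% and 6.98% of thinned cells.

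The same contrast in 3-month mice, made in 4607 cells under the same limits and sharing no library, gave smaller counts: 130 of 4796 genes (2.71%) stood 2-fold or more above PBS and 160 (3.34%) below. Of the 325 genes higher at 12 months 90 were also at least 2-fold higher at 3 months, 27.7% of the 12-month and 69.2% of the 3-month genes, and of the 186 lower genes 78, 41.9% and 48.75%. The sign alone was shared more widely, with 310 of the 325 above equality at 3 months and 178 of the 186 below it. The median log2 ratio at 3 months was 0.82 in the 325 and -0.91 in the 186, against 0.02 in all 4701 genes. Differences between ages are given as values, since with 1 library each they could not be tested.

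Interferon genes had smaller ratios at 3 months. Over the 23 members the median log2 ratio was 2.97 at 12 months and 1.09 at 3 months, where the median of the 4701 genes was 0.02. The higher ratio was at 12 months in 21 of 23, against 61.8% of all 4701 genes. The 23 were chosen by their level in the 12-month libraries alone. Members such as Isg15, Irf7, Oasl2 and Rtp4 passed only through 12-month bleomycin cells. This selection favours a higher ratio at 12 months, and its part was not tested. Isg15 was at 6.42 CPM with PBS and 16.2 CPM with bleomycin at 3 months, against 6.55 and 196 CPM at 12 months, a difference in log2 ratio of 3.57 (3.08 to 4.04). For Ifi27l2a the difference was 3.67 (3.43 to 3.90), for H2-Eb1 3.50 (3.25 to 3.75) and for Pttg1 3.01 (2.41 to 3.64). Ube2c, at 14.8 and 3.70 CPM at 3 months, differed by 8.87 (7.47 to 11.46).

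Some lists stood on opposite sides of 0. Heat-shock chaperones had medians of 0.27 at 12 months and -0.74 at 3 months, with all 14 members higher in ratio at 12 months, as were 61.8% of all genes. Their summed level was 2244 and 2931 CPM in the 12-month PBS and bleomycin libraries and 4863 and 2761 CPM in the 3-month ones, the highest of the 4 libraries being 3-month PBS. Clock genes had medians of -0.64 and 0.35: Dbp, a clock output factor, was at 48.5 and 33.7 CPM at 12 months and 4.59 and 111 CPM at 3 months, and the time of day of harvest was not given in the sources used here. Senescence and CDK inhibitor genes had medians of 0.32 and -0.59 over 5 members. Acute phase and iron genes had medians of -0.37 and 0.78, and 0 of 8 members had the higher ratio at 12 months. The sign of their 12-month median depended on which members passed the minimum. Among them, Lcn2 and Lrg1 were higher with bleomycin at both ages, with log2 values of 2.36 and 2.51 at 12 months and 2.92 and 2.80 at 3 months. Lpl (-3.51 and -2.77) and Bex4 (-2.69 and -2.37) were lower at both ages, while Scd1 was -1.05 at 12 months and 0.06 at 3 months, Cbr2 -2.02 and -0.35 and Prmt8 -2.94 and 0.09. Pigr, the immunoglobulin transporter of epithelia, was at 30.02 and 22.2 CPM at 12 months and 1.93 and 8.50 CPM at 3 months.

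**Figure D5:**
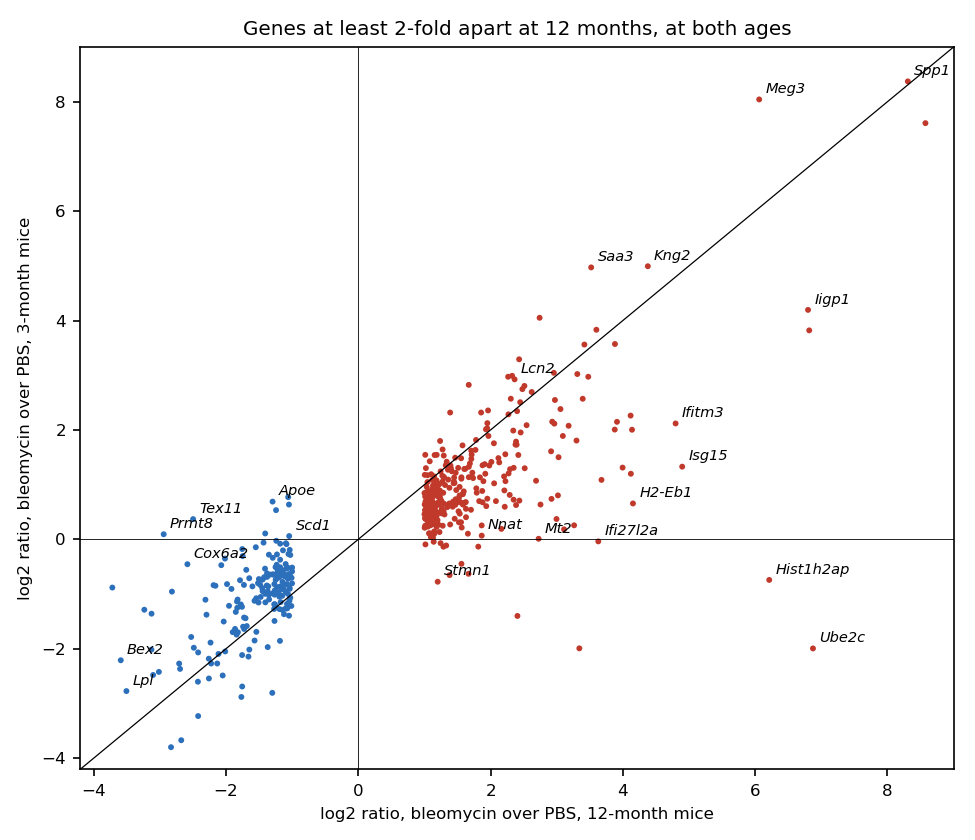
Log2 ratio of bleomycin over PBS at 12 months (x axis) and at 3 months (y axis) for the 325 genes at least 2-fold higher (red) and the 186 at least 2-fold lower (blue) at 12 months, which chose the points; each ratio compares 1 library with 1, and the line marks equal ratios. Isg15, Ifi27l2a and H2-Eb1 lie well to the right of the line, Saa3 and Lcn2 above it, and Hist1h2ap, Stmn1 and Apoe on opposite sides of 0 at the 2 ages.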

How the data were processed

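The authors deposited 1 matrix of UMI counts (genes by barcodes) for each library. Cell Ranger, mm10 and Seurat 3.2.2 are named in the submitters' processing notes; a Cell Ranger version was not given in those notes. The files hold whole numbers that are not normalized. The members and gene lists here were chosen with earlier results of these data known.

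Counts were summed over the selected cells of each library and scaled to CPM (Python 3.11.15, numpy 2.4.6, scipy 1.17.1, pandas 2.3.3, matplotlib 3.10.9). For log2 ratios 0.5 counts were added to each sum. Ratios have exact conditional-binomial 95% intervals, levels exact Poisson intervals, and differences between ages intervals from 10000 gamma draws, checked on simulated counts. For comparisons per cell, cells were thinned to 3000 counts, which left out 242 shallower PBS cells and no bleomycin cell. Alternatives changed the scaling, the filters on cells, the Sftpc limit (2 and 10%), the minimum level (5 and 100 CPM) and the prior, weighed cells equally, or left out doublets or cells with immune counts. Doublets were kept in the main setting. Scrublet (scanpy 1.11.5) called 0 PBS and 1 bleomycin barcodes at its own threshold, so an alternative left out the top-scoring 63 and 72, a rate of 0.8% per 1000 barcodes.

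The rule for named genes (257 genes) took 15 ratios at each end, the 12 largest increases and decreases in CPM, up to 5 largest ratios and the 2 highest levels of each of 46 lists, and the 6 largest differences from 3-month mice in each direction. The first 2 sets and the set of differences from 3-month mice leave out mitochondrial, ribosomal, haemoglobin, immunoglobulin, predicted and sex-linked genes and markers of other cell types. Bst2, Col4a4, Npc1, Oas1a and Rrm2b, and the markers of other cell types, were named outside this rule, after their values were seen. Cells called immune had at least 5 counts of Ptprc, Laptm5, Tyrobp, Fcer1g, Cd52 and Coro1a together. The listed names Bex3, Cebpd, Crry, Cxcl11, Rian and Tceal9 matched no gene name in the files. Nothing was analysed under those names, and a gene may be present under another name. Gene coordinates cover 27645 of 27998 identifiers.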

Additional observations from a re-analysis of the deposited data

Results flagged for a closer look

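For 5 named genes the ratio pointed one way at 12 months and the other way at 3 months, at least 1.5-fold apart at each age and at 20 CPM or more in a library of each. The difference was not tested, since each group was 1 library. Hist1h2ap, a histone gene of dividing cells, had a log2 ratio of 6.21 at 12 months and -0.74 at 3 months, with 0.376 and 30.7 CPM in the 12-month PBS and bleomycin libraries and 23.7 and 14.2 CPM in the 3-month ones. Stmn1, the microtubule destabiliser, had 1.20 and -0.78, with 60.2 and 138 CPM and then 103 and 60.0 CPM. Apoe had -1.30 and 0.69, with 1237 and 504 CPM and then 631 and 1018 CPM. The clock genes Nr1d2 (-0.99 and 1.26) and Tef (-0.76 and 1.67) were lower with bleomycin at 12 months and higher at 3 months.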

How the results depend on the processing

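All results rest on 1 library per group, so no setting can show the spread between mice, and the deeper bleomycin library has the more precise levels. No paired analysis was possible because each group was 1 library of pooled mice with no replicate number. The counts of genes at least 2-fold apart depend on the minimum level: 95 higher and 59 lower at 100 CPM, and 707 and 370 at 5 CPM. Under the other alternatives they were 261 to 424 higher and 165 to 244 lower. The 424 and 244 came from scaling without the 20 most abundant genes, where 6142 genes reached 20 CPM in place of 4701. Of 46 list medians, 13 changed sign under some alternative. At 100 CPM, where fewer members are counted, these were complement (-0.13), EGF receptor ligands (-1.01), TGF-beta (-1.25), antioxidant (-0.21), Notch (0.98) and BMP and Id genes (0.18), and at 5 CPM, where more are, acute phase (1.41) and imprinted genes (-0.019). Acute phase genes also turned (0.55) when scaled without the 20 most abundant genes. There too more members are counted, since the rescaled levels brought more genes to 20 CPM. The others, surfactant, alveolar transcription factor, AT1, FGF and ERK feedback and S100 and annexin genes, had medians within 0.2 of 0. Each of the 137 named genes at least 2-fold apart kept its direction in every alternative. In cells with no count of any immune marker, 116 of them stayed at least 2-fold apart. That setting left 1972 PBS and 160 bleomycin cells and moved 17 ratios by over 1.5 times (Isg15 to 17.9-fold, and Ube2c and Hist1h2ap each to 2 PBS and 5 bleomycin counts). Ctss, itself an immune marker, is counted in the 137 and the 116 although that setting left it 0 counts in both libraries. Its direction and ratio there came only from the 0.5 added counts. With only the cells of 5 or more leukocyte counts left out, a setting chosen after seeing the data, all 137 stayed at least 2-fold apart and 317 genes were higher and 186 lower. Ratios of genes with few counts in the shallower PBS library, such as Spp1 and Ube2c with 2, have the widest counting intervals.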

Other observations

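Some genes outside the lists and outside the naming rule were chosen after their values were seen. Pglyrp1, a peptidoglycan recognition protein, was at 85.7 CPM with PBS and 844 CPM with bleomycin at 12 months, 9.84-fold (9.28 to 10.5) higher, and at 53.5 and 187 CPM at 3 months. Glul, glutamine synthetase, was on the other side, at 179 and 53.7 CPM, 3.34-fold (3.14 to 3.56) lower. Jchain, which joins polymeric immunoglobulins and is a plasma cell marker, was at 3 counts with PBS and 3196 with bleomycin, and B or plasma cell markers summed to 27.3 and 146 CPM. The Y-linked genes Ddx3y (29.7 and 31.1 CPM) and Eif2s3y (27.0 and 38.7 CPM) were within 1.5-fold of each other in the 2 libraries. Of the 186 lower genes 30 had names that start with Gm and a digit or end in Rik or -ps, against 5 of the 325 higher ones. The share of such names among all genes described was not counted.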
